A study of Homo sapiens with 9 samples.

Results

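The comparison set the lipogenic model of HepG2 cells (DNL, 3 libraries) against the oleic acid model (OA, 3 libraries), 6 of the 9 libraries of the series, over a table of 19317 genes of which 13636 had enough counts to be tested. HepG2 is an established line from a human liver tumour. For DNL, cells were kept 1 week in DMEM containing insulin (10 µg/ml) and T0901317 (10 µM), a compound that activates the liver X receptors, here LXR. For OA, they were kept 6 h in DMEM containing oleic acid (25 µM) added from a stock in PBS with 11% bovine serum albumin. Both media held 10% serum and 1% antibiotics. The remaining 3 libraries (WT) were untreated cells in RPMI with the same serum and antibiotics, and their levels are given as a reference without a test. The compounds and the duration differed together between DNL and OA and cannot be told apart. No library had albumin alone or DMEM alone. A protocol text shared by all samples gives the DNL recipe, and the groups here follow the labels of each sample. The labels do not say that replicates were separate cultures, so a p-value here measures the spread between these libraries, which may be technical.

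Liver cells can fill with fat by 2 routes. In de novo lipogenesis, insulin and LXR raise SREBP-1c and ChREBP, the transcription factors that switch on the enzymes building fatty acids from acetyl-CoA. LXR also drives the genes that export cholesterol. In the other route, fatty acid taken up from the medium is esterified and stored in droplets coated by perilipins, and fatty acids act as ligands of the peroxisome proliferator-activated receptors (PPAR), which control genes of fatty acid oxidation.

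Levels are read counts scaled between libraries by edgeR's TMM factors and given per 1e6 counts (CPM), and are compared within a gene, since they are not corrected for length. The 3 values of a group are those of replicates 1, 2 and 3, WT levels are the mean ± SD (n = 3), and gene positions are on GRCh38 (GENCODE v29). Totals of estimated counts ran from 16447398 to 36147431 in DNL and from 7836520 to 28636903 in OA, where replicates 3 and 1 were the shallowest. The lowest correlation of log2 levels between replicates was 0.965, and the highest between a DNL and an OA library was 0.925. The 20 most abundant genes took 19.7% to 20.5% of counts in DNL and 10.2% to 10.4% in OA, and mitochondrially encoded transcripts took 5.28% to 6.65% and 3.20% to 3.58%. Of 10 hepatocyte markers, all were measured and 9 were higher in DNL, with summed levels of 74268 to 76332 CPM in DNL, 13262 to 15297 CPM in OA and 41131 to 42757 CPM in WT. In such bulk samples, fewer cells of a kind and less RNA per cell cannot be told apart.

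The OA libraries differed from each other in transcripts that rose from replicate 1 to replicate 3. Other patterns between these libraries were not searched for. COL1A1, a chain of type I collagen, measured 0.647, 0.399 and 0.706 CPM in DNL and 19.3, 85 and 537 CPM in OA. COL3A1, a chain of type III collagen, measured 0.216, 0 and 0 CPM in DNL and 2.53, 9.36 and 66.9 CPM in OA. KRT7, a keratin of bile duct epithelium, measured 0, 0 and 0 CPM in DNL and 0.474, 1.48 and 8.19 CPM in OA. In these 3 genes OA replicate 3 was the highest and replicate 1 the lowest of the OA libraries, and every DNL library was under 1 CPM. KRT7 was not called without OA replicate 2 (adjusted p = 0.0629), where its fitted log2 fold change was -9.67 against -9.31 with all libraries, both dependent on the prior count since DNL held none. ELN, VIM and COL1A2 were chosen after their values were seen. COL1A2, the other chain of type I collagen, measured 10.2, 41.1 and 259.6 CPM in OA replicates 1, 2 and 3. ELN, which encodes elastin, measured 22.4, 91 and 587 CPM there. VIM, an intermediate filament of mesenchymal cells, measured 3.79, 10.5 and 66.7 CPM with no count in DNL and was not called (adjusted p = 0.102). PDGFRA, a receptor of fibroblasts, measured 0.123, 0.133 and 0.0416 CPM in DNL and 0.237, 0.955 and 5.58 CPM in OA, and its call was lost with OA replicate 1 as the only OA library (adjusted p = 0.425). In all, 73 genes had at least 5 CPM in OA replicate 3, at least 3 times the level of replicate 2, and in replicate 2 at least 1.5 times that of replicate 1. Their summed level was 157, 545 and 3152 CPM in OA replicates 1, 2 and 3, 329 to 387 CPM in DNL and 181 to 200.4 CPM in WT. In 52 of the 73 every DNL library was at or under 1 CPM, and CCND2, chosen after its values were seen, made 167, 187 and 173 CPM of the DNL sums. DYNC1H1 and PPP1R10, chosen in the same way, averaged 102 and 46 CPM in WT. In DNL they measured 67.1, 36.1 and 88.2 CPM and 42.7, 86.8 and 3.66 CPM. In WT, COL1A1 and ELN averaged 0.853 and 0.121 CPM, and COL1A2 and VIM had no count. COL1A2 had no count in DNL either. Of the 60 tested among the 73, 42 were lower in DNL, 1 was higher and 17 were not called, counts that the choice by high OA values largely fixes. Of 9 fibroblast and stellate cell markers, 8 were tested and 4 were lower in DNL, with summed levels of 99.3, 234 and 1112 CPM in OA and 90.6 to 92.7 CPM in DNL. COL1A1, COL1A2, COL3A1, VIM and PDGFRA were each under 1 CPM in every DNL library, so other members made most of the DNL sums. Why the 73 genes differed between OA libraries was not tested, and their part in other results was followed only by refitting. With OA replicate 1 as the only OA library, 3702 genes were higher and 3496 lower, and without the 73 genes the counts were 4344 and 4186.

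**Figure D1:**
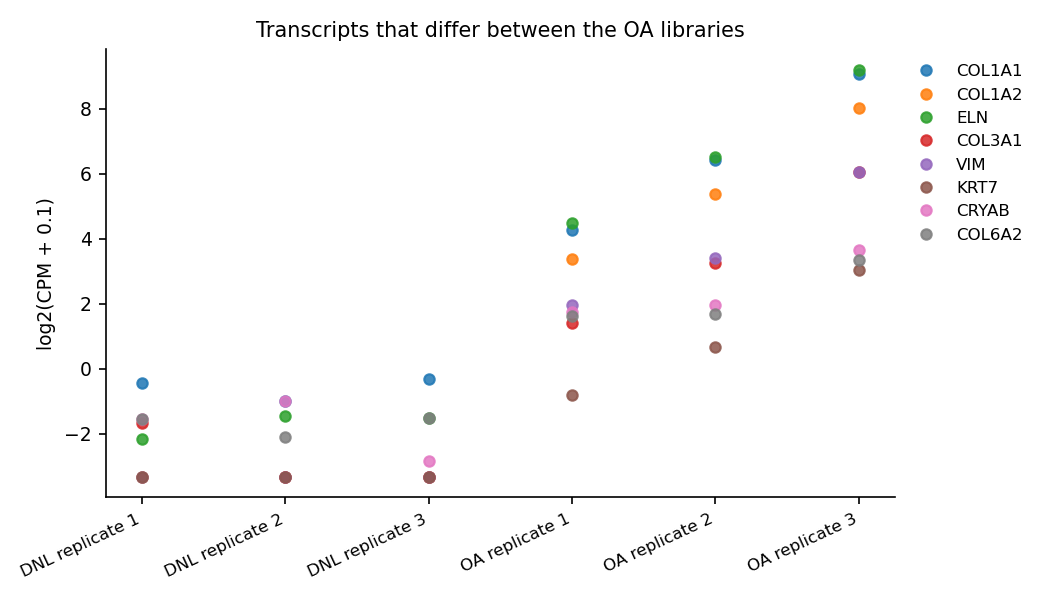
Level of 8 genes in each DNL and OA library, as log2 of CPM with 0.1 added, 1 point per gene. COL1A1, COL1A2, ELN, COL3A1, VIM and KRT7 are highest in OA replicate 3 and lowest in replicate 1 among the OA libraries, and CRYAB and COL6A2 stand higher in replicate 3 than in the other two.

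Most of the expressed transcriptome differed between the models. Of 13636 genes tested, 4349 had higher and 4208 had lower levels in DNL than in OA at an adjusted p under 0.05 (edgeR quasi-likelihood test, Benjamini-Hochberg adjustment over all genes), which is 62.8% of genes in either direction, 31.9% higher and 30.9% lower. At least 2-fold, 1384 genes (10.1%) were higher and 1355 (9.94%) lower, and at least 4-fold 410 and 443. The median log2 fold change over all genes was 0.013. Scaling by library totals in place of TMM shifted that median by -0.23 and changed the split to 2958 higher and 5773 lower, so that 33.9% of calls were higher in place of 50.8%. A gene list with about 31.9% of its members higher and 30.9% lower is at the background. For calls of at least 2-fold the background is 10.1% higher and 9.94% lower. These shares apply to every list below. List counts with library totals are to be read against the split of 2958 higher and 5773 lower, since that scaling shifted the median of all genes.

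**Figure D2:**
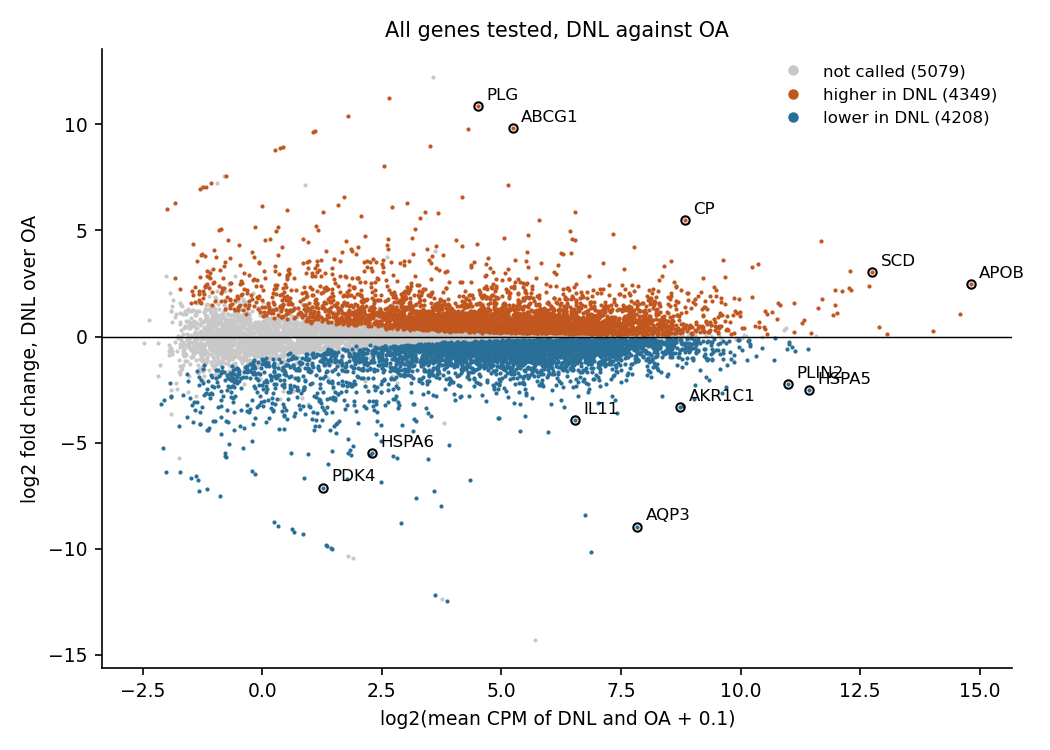
Log2 fold change of DNL over OA for each of 13636 tested genes (vertical axis) against the log2 mean CPM of both groups with 0.1 added (horizontal axis). The 4349 genes called higher in DNL lie above 0 and the 4208 called lower lie below it across the range of levels, and 12 genes described in the text are ringed.

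**Figure D3:**
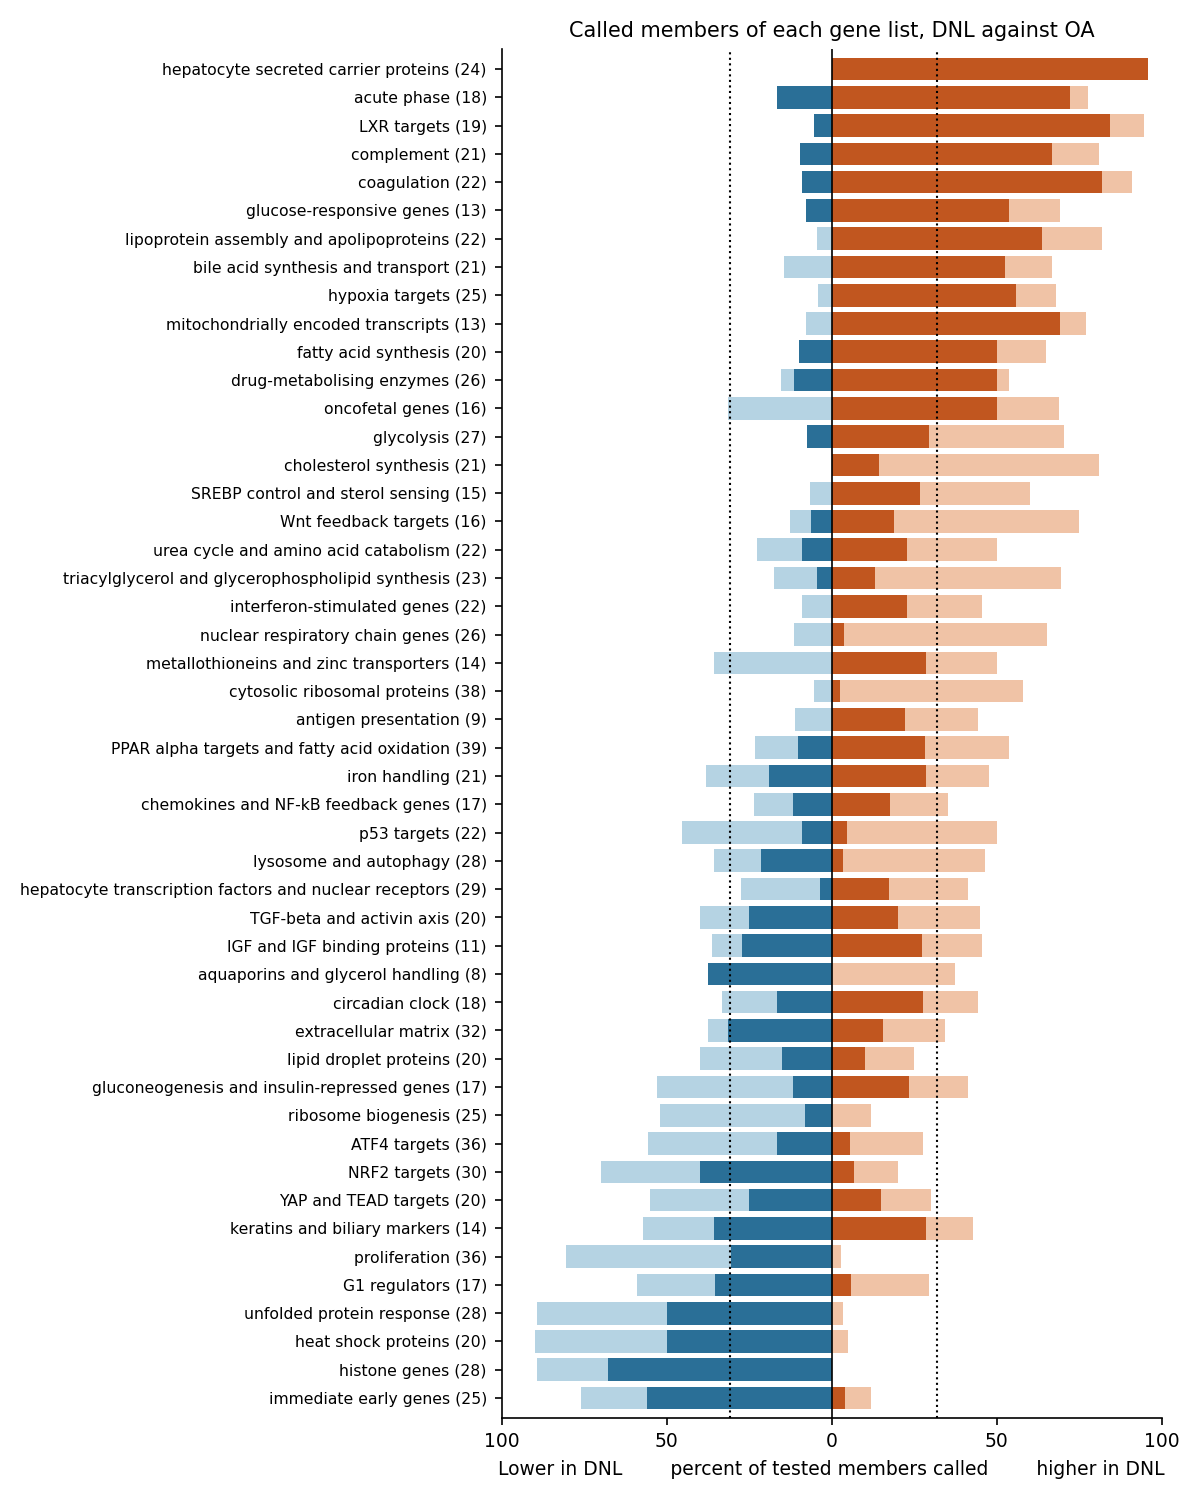
Percent of tested members of 48 gene lists that were called higher (right) and lower (left) in DNL than in OA, with calls of at least 2-fold in the darker shade and the number tested in parentheses. Lists are in order of their median log2 fold change, and dotted lines mark the shares over all genes, 31.9% and 30.9%.

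Lipogenic enzymes were several-fold higher in DNL. The desaturase that makes oleic acid, SCD (chromosome 10, 100347124 to 100364834), measured 12199.5, 12245 and 12542 CPM in DNL and 1650.2, 1387 and 1431 CPM in OA. Every DNL library was above every OA library, an 8.28-fold difference (log2 fold change 3.05, SE 0.0605, adjusted p = 6.61e-13). The multienzyme that assembles palmitate, FASN, measured 6466, 6666 and 6615 CPM in DNL and 1619.8, 1381 and 1356 CPM in OA, and was 4.53-fold higher. FADS2, a desaturase of polyunsaturated fatty acids, measured 645, 670.2 and 690.3 CPM in DNL and 114, 105 and 118 CPM in OA. These 3 enzymes stood at 1019 ± 31.7, 1053 ± 21 and 42.8 ± 1.52 CPM in WT. Of 22 genes of fatty acid synthesis, 20 were tested, of which 13 were higher and 2 lower, 10 and 2 of them at least 2-fold, with a median log2 fold change of 1.00. The members lower in DNL were FADS3, a desaturase-like gene of the same cluster, at 13.7, 18 and 15.5 CPM in DNL and 64.8, 61.2 and 54.7 CPM in OA, and ELOVL1, an elongase of very long saturated chains, at 39, 39.3 and 46.7 CPM in DNL and 88, 103 and 106 CPM in OA.

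LXR targets were higher in DNL in 18 of 19 tested members, 16 of them at least 2-fold, and 1 was lower (median log2 fold change 1.74). ABCG1, a cholesterol exporter (chromosome 21, 42199689 to 42297244), measured 77.3, 78.8 and 69.2 CPM in DNL and 0, 0.132 and 0 CPM in OA. The OA group held 4 counts of this gene in all. ABCA1, which loads cholesterol onto apolipoprotein A-I, measured 1028, 996 and 1074 CPM in DNL and 172, 143 and 138 CPM in OA, and was 6.83-fold higher in DNL. WT cells held an intermediate level of ABCA1, at 476 ± 7.34 CPM. MYLIP, a ubiquitin ligase, measured 62.2, 56 and 61.2 CPM in DNL and 7.11, 7.64 and 7.72 CPM in OA. SREBF1, the gene of SREBP-1, measured 317, 316 and 297 CPM in DNL and 58.1, 55.2 and 57.8 CPM in OA, a 5.45-fold difference (log2 fold change 2.45, SE 0.0468, adjusted p = 4.61e-13).

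Sterol synthesis was higher in DNL by smaller factors. Of 21 cholesterol synthesis genes, all were tested, and 17 were higher and 4 not called (median 0.55). Of the 21, 3 were higher by at least 2-fold, beside 10.1% of all genes. With library totals, 14 were higher and 2 lower. FDPS, the farnesyl diphosphate synthase, measured 144, 149 and 138 CPM in DNL and 52.1, 45.6 and 39.9 CPM in OA. HMGCS1, the synthase at the entry of the pathway, measured 469, 466 and 489.6 CPM in DNL and 306, 277 and 289 CPM in OA, and DHCR7, the last reductase, measured 517, 543 and 534 CPM in DNL and 330.3, 301 and 288 CPM in OA. Both groups stood above WT, where HMGCS1 and DHCR7 measured 117 ± 4.37 and 121 ± 3.17 CPM. INSIG1, which holds SREBP in the endoplasmic reticulum, was at 1.76, 2.06 and 1.25 CPM in DNL and 0.711, 1.15 and 2.14 CPM in OA and was not called. Of 15 genes of SREBP control, 9 were higher and 1 lower (9 and 4 with library totals). The lower one was FBXW7, a ubiquitin ligase that degrades SREBP, at 22.1, 22 and 21.2 CPM in DNL and 29.5, 28.2 and 34.8 CPM in OA.

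**Figure D4:**
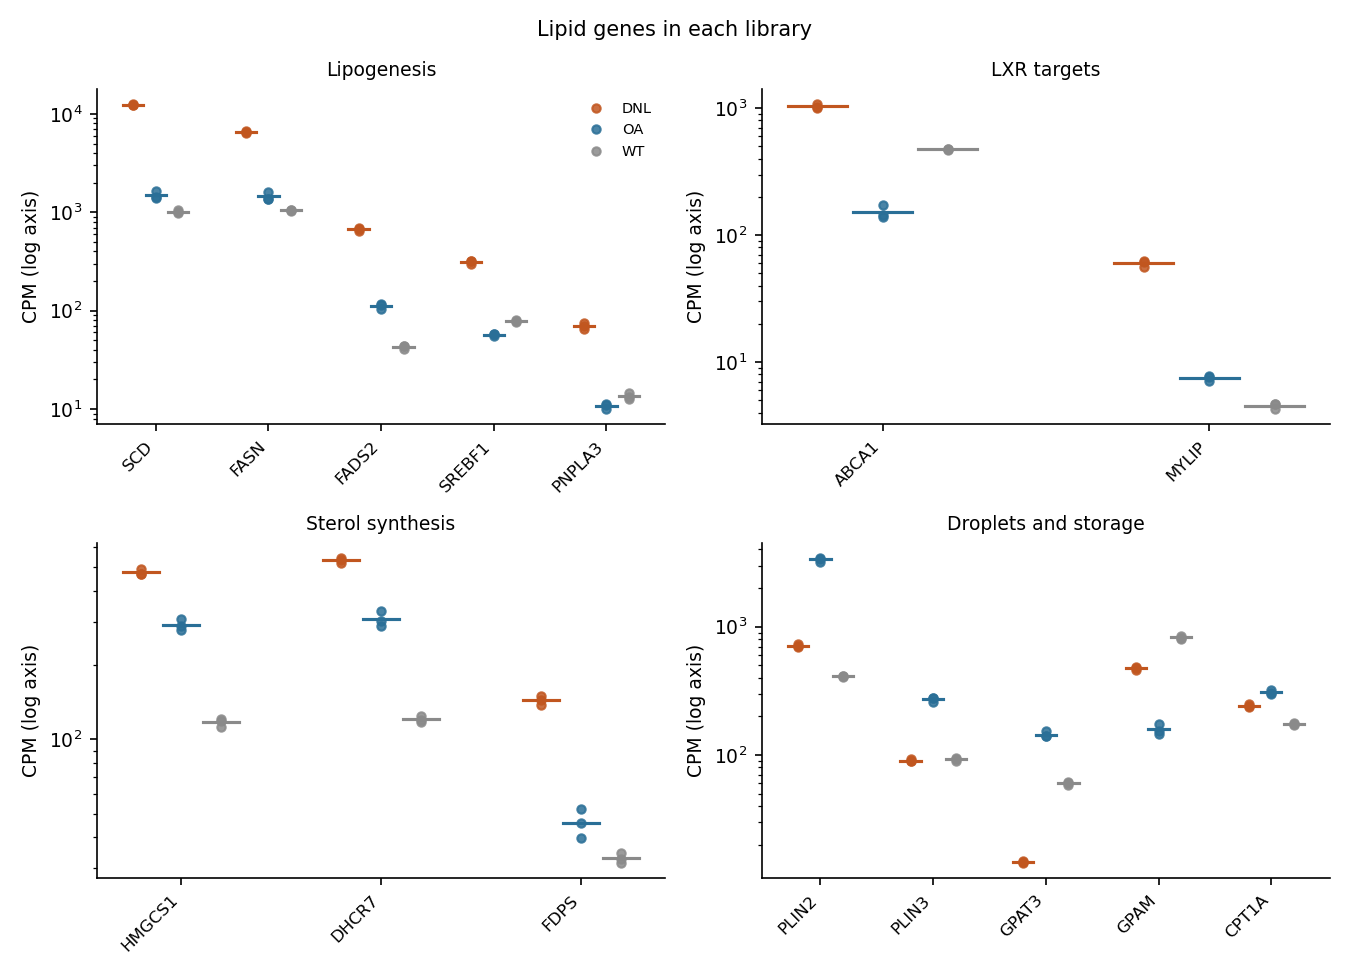
Level of lipid genes in every library, in CPM on a log axis, with 3 points per group and a bar at the mean, for DNL, OA and WT. DNL lies above OA for SCD, FASN, FADS2, SREBF1, PNPLA3, ABCA1 and MYLIP and below it for PLIN2, PLIN3, GPAT3 and CPT1A.

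Perilipins, the coat proteins of droplets, differed in both directions. PLIN2, the perilipin that coats droplets in liver cells (chromosome 9, 19108375 to 19149290), measured 713, 691 and 732 CPM in DNL and 3216, 3433 and 3378 CPM in OA, so that OA was 4.69-fold higher (log2 fold change -2.23, SE 0.0386, adjusted p = 2.39e-13). PLIN3, a perilipin that moves between cytosol and droplets, measured 89.2, 92.2 and 89.1 CPM in DNL and 259, 280.01 and 276 CPM in OA. PLIN1, the perilipin of fat cells, was higher in DNL at low levels, with 1.57, 1.66 and 1.16 CPM in DNL and 0.632, 0.593 and 0.356 CPM in OA (adjusted p = 0.00586), a call that was lost with OA replicate 1 as the only OA library (adjusted p = 0.0986). PNPLA3, a lipase-like droplet protein and SREBP-1c target, measured 65.4, 69.9 and 74.5 CPM in DNL and 10.9, 10 and 11.2 CPM in OA, with DNL above OA. FITM2, needed for droplet budding, measured 95.9, 104 and 98.3 CPM in DNL and 56.1, 50.8 and 49.5 CPM in OA. Of 20 droplet genes tested of 24, 5 were higher and 8 lower in DNL (median -0.15). With counts thinned to the shallowest library, the 5 higher members became 3.

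Of 23 tested genes of triacylglycerol and glycerophospholipid synthesis, 16 were higher and 4 lower in DNL, and scaling by library totals gave 11 and 5. At least 2-fold, 3 of the 23 were higher and 1 lower, beside 10.1% and 9.94% of all genes. GPAM, the mitochondrial glycerol-3-phosphate acyltransferase, measured 473, 461 and 486 CPM in DNL and 175, 153 and 147 CPM in OA. GPAT3, the acyltransferase of the endoplasmic reticulum for the same step, measured 14.6, 14.4 and 14.8 CPM in DNL and 140.4, 152 and 139.7 CPM in OA, and was 9.88-fold higher in OA. WT stood above both groups for GPAM (825 ± 20.2 CPM) and between them for GPAT3 (60.4 ± 1.66 CPM). In phospholipid synthesis, PCYT2 of the ethanolamine branch measured 208, 211 and 219 CPM in DNL and 85, 84.5 and 74.6 CPM in OA and PCYT1A of the choline branch measured 89.5, 87.7 and 90.1 CPM in DNL and 131, 131 and 131 CPM in OA. PCYT2 was thus higher and PCYT1A lower in DNL.

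Among PPAR alpha targets and oxidation genes, 21 of 39 tested members were higher and 9 lower in DNL (median 0.27, or 0.04 with library totals, with 16 higher and 13 lower). At least 2-fold, 11 were higher and 4 lower, and more members were higher than lower under either scaling. More of the genes named below were lower than higher, unlike the list, since PDK4, CPT1A and ANGPTL4 were among the 24 set genes. PDK4, the kinase that shuts pyruvate dehydrogenase, measured 0, 0 and 0.0831 CPM in DNL and 4.19, 5.37 and 4.16 CPM in OA. Its DNL group held 2 counts and its OA group 251, a ratio of OA over DNL with an exact 95% interval of 47.8 to 1449.8 for counting error only. CPT1A, which lets fatty acids into mitochondria, measured 248, 237 and 239.7 CPM in DNL and 321, 296 and 306 CPM in OA, a 1.27-fold difference. ANGPTL4, the secreted inhibitor of lipoprotein lipase, measured 7.11, 8.32 and 6.98 CPM in DNL and 9.87, 12.6 and 12.6 CPM in OA (adjusted p = 0.00527), a call that was lost with OA replicate 1 as the only OA library (adjusted p = 0.194). CREB3L3, a liver factor of the fasting response, measured 6.22, 5.52 and 6.86 CPM in DNL and 84.2, 85.9 and 82.8 CPM in OA, and VNN1, a pantetheinase, measured 3.48, 4.39 and 3.16 CPM in DNL and 26.1, 30.3 and 29.8 CPM in OA. ACSL3 and ACSL4, which activate long-chain fatty acids, were higher in DNL, with ACSL3 at 960.3, 914 and 948 CPM in DNL and 209, 226 and 229.8 CPM in OA and ACSL4 at 1187, 1163 and 1142 CPM in DNL and 255, 230.03 and 219 CPM in OA.

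Lipoprotein genes were higher in DNL. APOB, the protein scaffold of liver-derived lipoprotein particles (chromosome 2, 21001429 to 21044073), measured 49985, 48554 and 48473 CPM in DNL and 9625, 8428 and 8249.5 CPM in OA, a 5.59-fold difference (SE of log2 0.0558, adjusted p = 1.26e-12). WT stood between them, at 30206 ± 782 CPM. APOC3, which slows lipoprotein clearance, measured 70.1, 70.2 and 75.1 CPM in DNL and 6.48, 6.03 and 5.23 CPM in OA. Of 22 members tested, 18 were higher, 14 at least 2-fold, and 1 was lower, PDIA3, a disulfide isomerase, at 401, 419 and 394 CPM in DNL and 521, 489 and 476 CPM in OA. The summed level of the list was 56744 to 58616 CPM in DNL, 11929 to 13621 CPM in OA and 34593 to 36038 CPM in WT.

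Glycolysis and hypoxia targets were mostly higher in DNL. LDHA, the lactate dehydrogenase subunit, measured 749, 763 and 806 CPM in DNL and 254, 252 and 256 CPM in OA, and SLC2A3, a glucose transporter, measured 441, 425 and 419.7 CPM in DNL and 159, 153 and 149.99 CPM in OA. Of 27 glycolysis genes tested, 19 were higher and 2 lower. The 2 lower ones were PFKP, the platelet isoform of phosphofructokinase, at 6.41, 6.65 and 8.48 CPM in DNL and 34.2, 34.2 and 39.3 CPM in OA, and HK1, a hexokinase, at 3.73, 4.72 and 2.95 CPM in DNL and 5.92, 7.81 and 10.3 CPM in OA, whose call was lost with OA replicate 1 as the only OA library (adjusted p = 0.141). CA9, a carbonic anhydrase induced through hypoxia-inducible factor (HIF), measured 21.6, 18.1 and 22.4 CPM in DNL and 0.395, 0.329 and 0.356 CPM in OA. EGLN3, the prolyl hydroxylase that is itself a HIF target, measured 25.7, 19.3 and 21.9 CPM in DNL and 0.079, 0.0329 and 0 CPM in OA. Its OA group held 2 counts, and the ratio of DNL over OA had an exact 95% interval of 164 to 4912 for counting error only. P4HA1, a collagen prolyl hydroxylase, measured 365, 349.8 and 351 CPM in DNL and 84.3, 71.2 and 83.5 CPM in OA, and ERO1A, an oxidase of the endoplasmic reticulum, measured 363, 348 and 341 CPM in DNL and 114, 124 and 126 CPM in OA. Of 25 hypoxia targets, 17 were higher, 14 at least 2-fold, and 1 was lower, ANGPTL4 (16 and 4 with library totals).

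Glucose-responsive genes were also higher in DNL, in 9 of 13 tested members against 1 lower. G6PC1, which releases free glucose from its phosphate (chromosome 17, 42900797 to 42913369), measured 34.3, 31.5 and 37 CPM in DNL and 1.82, 1.75 and 1.9 CPM in OA, a 19.1-fold difference, with WT higher still at 79.3 ± 1.73 CPM. TXNIP, an arrestin-like protein that limits glucose uptake, measured 222, 221 and 242 CPM in DNL and 89.8, 74.2 and 86 CPM in OA, and MLXIPL, the gene of ChREBP, measured 176, 184 and 179.8 CPM in DNL and 38.3, 44.8 and 42.5 CPM in OA. For TXNIP and MLXIPL too, WT stood above both groups, at 243 ± 0.902 and 269 ± 12.8 CPM. The list summed to 879 to 916 CPM in DNL, 349 to 359 CPM in OA and 1067 to 1101 CPM in WT. FGF21, a hormone of the fasted liver, was the lower member at 0.0924, 0.0665 and 0.125 CPM in DNL and 0.79, 0.626 and 0.594 CPM in OA. Gluconeogenesis and insulin-repressed genes had no common direction, with 7 higher and 9 lower of 17. PPARGC1A, the coactivator PGC-1 alpha, measured 75.3, 72.9 and 75.4 CPM in DNL and 20.6, 21.5 and 20.4 CPM in OA, whereas IGFBP1, which insulin represses, measured 1801, 1792 and 1888 CPM in DNL and 2133, 2514 and 2330.1 CPM in OA. WT stood above both groups for PPARGC1A (125 ± 4.81 CPM) and for IGFBP1 (5147 ± 184 CPM). TRIB3, an inhibitor of insulin signalling and ATF4 target, measured 408, 407 and 429.8 CPM in DNL and 726, 843 and 794 CPM in OA, and PC, pyruvate carboxylase, measured 125, 131 and 133 CPM in DNL and 194, 200.5 and 184 CPM in OA.

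Endoplasmic reticulum (ER) chaperones were lower in DNL. When unfolded proteins accumulate in the ER, the sensors IRE1, PERK and ATF6 raise chaperones, and ATF6 and XBP1 bind the ER stress element in their promoters. HSPA5, the chaperone BiP (chromosome 9, 125234853 to 125241330), measured 809.9, 835 and 795 CPM in DNL and 4422, 4894 and 4852 CPM in OA. The OA libraries were 5.81-fold higher (log2 fold change -2.54, SE 0.0453, adjusted p = 2.96e-13), and WT stood at 1049 ± 20.6 CPM. DNAJB9, a cochaperone that restrains IRE1, measured 39.4, 39.9 and 40.8 CPM in DNL and 270.3, 290.03 and 277 CPM in OA, and DDIT3, the stress factor CHOP, measured 16.3, 15.1 and 16.8 CPM in DNL and 55.1, 77.9 and 80.2 CPM in OA. Of 28 members tested of 29, 25 were lower, 14 at least 2-fold, 1 was higher and 2 were not called (median -0.98, against 0.013 over all genes). The higher member was XBP1, at 374, 372 and 397 CPM in DNL and 246, 281 and 269 CPM in OA. The summed level was 7205 to 7495 CPM in DNL, 15273 to 16147 CPM in OA and 7891 to 8178 CPM in WT.

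The ER stress element, CCAAT and CCACG separated by 9 bases, was searched on both strands from 250 bases before to 50 after each start listed by RefSeq (GRCh38.p14). It occurred in 25 of 27305 genes with such a window (0.0916%) and in 7 of 26 members of the unfolded protein response list with one (26.9%). The element was chosen as one known from chaperone promoters. Its share in this list does not depend on the levels measured here. Those 7 were HSPA5, HSP90B1, CALR, CANX, PDIA6 and CRELD2, which were lower in DNL, and XBP1, which was higher. Among the 19 members without a match, 17 were lower and 2 were not called. HSP90B1, the ER chaperone GRP94, was chosen for display after its values were seen and measured 673, 640.5 and 661 CPM in DNL and 1012, 1112 and 1163 CPM in OA. The 250 bases before the start are shown for 2 of these genes because they carry the element, in capitals, found in 6 members that were lower in DNL. They lie on the minus strand of chr9:125241344-125241593 for HSPA5 and the plus strand of chr12:103930160-103930409 for HSP90B1, where it occurs in both orientations.
HSPA5: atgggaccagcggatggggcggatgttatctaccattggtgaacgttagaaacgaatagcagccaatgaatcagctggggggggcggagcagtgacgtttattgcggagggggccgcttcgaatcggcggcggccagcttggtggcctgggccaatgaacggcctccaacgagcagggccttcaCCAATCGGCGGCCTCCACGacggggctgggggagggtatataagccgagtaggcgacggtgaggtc
HSP90B1: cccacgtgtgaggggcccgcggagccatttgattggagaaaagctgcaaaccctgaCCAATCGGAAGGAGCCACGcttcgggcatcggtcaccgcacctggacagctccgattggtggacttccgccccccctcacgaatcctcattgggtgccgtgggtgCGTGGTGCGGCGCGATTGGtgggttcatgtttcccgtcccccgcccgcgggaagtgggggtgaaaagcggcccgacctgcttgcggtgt

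Cytosolic heat shock genes were lower in DNL as well. HSPA6, a strictly inducible HSP70, measured 0.123, 0.466 and 0.125 CPM in DNL and 7.66, 11.2 and 9.26 CPM in OA. BAG3, a cochaperone of selective autophagy, measured 39.8, 39.5 and 38.4 CPM in DNL and 147, 182 and 179 CPM in OA, and HSP90AA1, the inducible HSP90, measured 582, 575 and 566 CPM in DNL and 1217, 1207 and 1215 CPM in OA. All 3 were lower in every DNL library than in every OA library, by 44.9-fold, 4.32-fold and 2.11-fold. Of 20 members tested of 24, 18 were lower, 10 at least 2-fold, and 1 was higher, HSPA4L, an HSP110 family member, at 86.5, 86.8 and 86.4 CPM in DNL and 65.1, 59.8 and 61.4 CPM in OA. Heat shock genes include near-identical copies, so how the estimator divided reads among them is uncertain.

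Heat shock factor binds inverted repeats of GAA. The 3-unit form GAANNTTCNNGAA, on either strand, occurred in the promoter windows of 166 of 27305 genes (0.608%) and of 7 of 22 heat shock genes (31.8%), all 7 lower in DNL. Among the 15 without it, 9 were lower, 1 was higher, 1 was not called and 4 were not tested. The shorter form GAANNTTC, which the longer one contains, occurred in 8.21% of genes and 63.6% of the list. Both forms were chosen as known sites of heat shock factor. Their shares in the list do not depend on the levels measured here. HSPA6 (plus strand, chr1:161524290-161524539) and HSPA8 (minus strand, chr11:123062137-123062386) are shown to set an inducible beside a constitutive HSP70 gene, with matches to the 3-unit form in capitals. HSPA8, chosen after its values were seen, measured 1106, 1029 and 1013 CPM in DNL and 2146, 2322 and 2338 CPM in OA.
HSPA6: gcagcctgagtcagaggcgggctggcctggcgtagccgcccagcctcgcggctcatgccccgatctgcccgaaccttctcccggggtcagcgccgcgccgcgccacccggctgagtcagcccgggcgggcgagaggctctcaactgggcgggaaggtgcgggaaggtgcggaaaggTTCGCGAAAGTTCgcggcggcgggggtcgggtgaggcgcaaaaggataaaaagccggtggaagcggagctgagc
HSPA8: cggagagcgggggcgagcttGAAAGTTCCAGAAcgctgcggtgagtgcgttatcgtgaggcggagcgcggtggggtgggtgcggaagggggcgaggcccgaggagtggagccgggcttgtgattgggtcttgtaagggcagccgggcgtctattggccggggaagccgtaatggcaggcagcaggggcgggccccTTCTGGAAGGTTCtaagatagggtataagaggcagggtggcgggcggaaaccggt

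**Figure D5:**
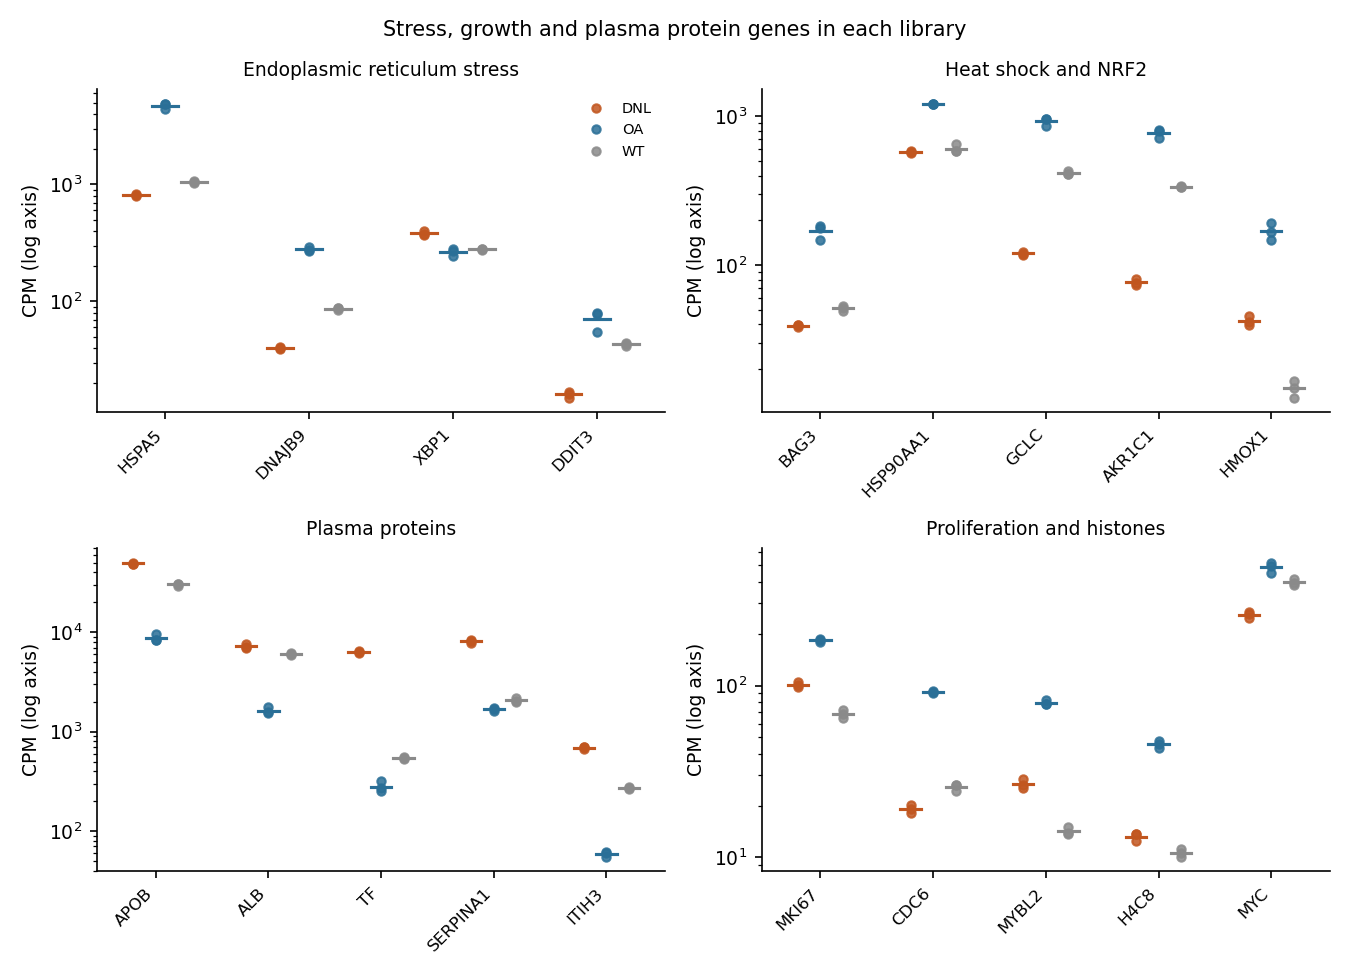
Level of stress, plasma protein and growth genes in every library, in CPM on a log axis, with 3 points per group and a bar at the mean, for DNL, OA and WT. OA lies above DNL for HSPA5, DNAJB9, DDIT3, BAG3, HSP90AA1, GCLC, AKR1C1, HMOX1 and the growth and histone genes, and below it for XBP1 and the 5 plasma protein genes.

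NRF2 targets, which detoxify electrophiles, were lower in DNL in 21 of 30 tested members, 12 at least 2-fold, and higher in 6. AKR1C1, an aldo-keto reductase with close paralogs, measured 73.3, 76.3 and 81.2 CPM in DNL and 713, 802 and 814 CPM in OA. GCLC, the catalytic subunit that starts glutathione synthesis, measured 123, 119.6 and 118 CPM in DNL and 868, 961 and 962 CPM in OA. HMOX1, the haem oxygenase, measured 41.3, 45.5 and 39.4 CPM in DNL and 149, 192 and 167 CPM in OA. OA was 10.1-fold, 7.74-fold and 4.04-fold higher, and WT stood between the groups for AKR1C1 and GCLC (336 ± 2.93 and 416 ± 13 CPM) but below both for HMOX1 (14.9 ± 1.91 CPM). Higher in DNL were EPHX1, an epoxide hydrolase, at 178, 179.8 and 167 CPM in DNL and 79.6, 70.6 and 70.3 CPM in OA, and GPX2, a glutathione peroxidase, at 336, 338 and 314 CPM in DNL and 139, 134 and 114 CPM in OA.

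ATF4 targets of the amino acid response were split, with 10 higher and 20 lower of 36 (9 and 26 with library totals). SLC3A2, the heavy chain of amino acid exchangers, measured 179.6, 175 and 183 CPM in DNL and 841, 922 and 894 CPM in OA, and SESN2, an inhibitor of mTORC1, measured 25.1, 28.3 and 30.5 CPM in DNL and 108, 128 and 119 CPM in OA. PSAT1 of serine synthesis measured 532, 531 and 561 CPM in DNL and 268, 281 and 268 CPM in OA, and PCK2, the mitochondrial phosphoenolpyruvate carboxykinase, measured 149, 152 and 154 CPM in DNL and 75.2, 77.4 and 75.6 CPM in OA. Both were higher in DNL, each by 1.99-fold. Lysosome and autophagy genes were divided too, with 13 higher and 10 lower of 28 (10 and 12 with library totals). CTSD, cathepsin D, measured 810.3, 835 and 850.2 CPM in DNL and 361, 314 and 335 CPM in OA, and LIPA, the lysosomal acid lipase, measured 357, 359 and 369 CPM in DNL and 199, 179.8 and 177 CPM in OA, whereas the autophagy receptor SQSTM1 measured 272, 262 and 258 CPM in DNL and 969.8, 1001 and 956 CPM in OA and the kinase ULK1 measured 51.2, 50.2 and 53.1 CPM in DNL and 124, 134 and 138 CPM in OA. The 2 hydrolases were higher in DNL and the 2 autophagy genes lower.

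Plasma protein genes were higher in DNL with few exceptions. Of 24 secreted carrier protein genes tested of 26, 23 were higher in DNL and each of the 23 by at least 2-fold, and the other was not called (median 2.11). ALB, serum albumin (chromosome 4, 73397114 to 73421412), measured 7150.3, 6930.4 and 7587 CPM in DNL and 1787, 1560.3 and 1536 CPM in OA, and ITIH3, an inhibitor chain that binds hyaluronan, measured 698, 669.8 and 696 CPM in DNL and 61, 59.7 and 55.5 CPM in OA. SERPINA3, an antichymotrypsin, measured 2357, 2437 and 2414 CPM in DNL and 239.7, 219.7 and 216 CPM in OA. They were 4.44-fold, 11.7-fold and 10.7-fold higher. SERPIND1, heparin cofactor II, measured 553, 563 and 518 CPM in DNL and 88.5, 86.2 and 79.8 CPM in OA, and ITIH2 measured 5146, 5167 and 5106 CPM in DNL and 1528, 1493 and 1509 CPM in OA. The list summed to 40783 to 41499 CPM in DNL, 8820 to 9570 CPM in OA and 20884 to 21719 CPM in WT.

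Coagulation genes were higher in 20 of 22 tested members, 18 at least 2-fold. FGB, the fibrinogen beta chain, measured 164, 162 and 156 CPM in DNL and 31.2, 28 and 27.3 CPM in OA, and TFPI, the tissue factor pathway inhibitor, measured 901, 897 and 878 CPM in DNL and 336, 339 and 332 CPM in OA. PLG, the gene of plasminogen, measured 48, 43.2 and 44 CPM in DNL and 0, 0 and 0.119 CPM in OA. The OA group held 1 count of PLG, and the ratio of DNL over OA had an exact 95% interval of 421 to 92799.9 for counting error only. The 2 lower members were PLAU, urokinase, at 4.47, 3.26 and 3.99 CPM in DNL and 12.4, 11.2 and 13.3 CPM in OA, and PLAUR, its receptor, at 4.19, 4.26 and 3.24 CPM in DNL and 13.6, 17 and 16.6 CPM in OA.

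Complement genes were higher in 17 of 21 tested members and lower in 2. C3, the central component, measured 8567, 8375 and 7965 CPM in DNL and 1849.5, 1803 and 1745 CPM in OA, and C5 measured 324, 326 and 327 CPM in DNL and 79.3, 76.6 and 79.6 CPM in OA. CD55, which protects cells from complement, measured 25.9, 27.9 and 24.8 CPM in DNL and 52.2, 61 and 60 CPM in OA, and C5AR1, the receptor of the C5a fragment, measured 2.8, 3.33 and 2.58 CPM in DNL and 7.66, 9.55 and 8.31 CPM in OA. These 2 secreted components were higher and the 2 membrane proteins lower in DNL. Acute phase genes were higher in 14 of 18 and lower in 3. Among them IL6R, the interleukin 6 receptor, measured 32.8, 30 and 29.6 CPM in DNL and 152, 159 and 162 CPM in OA, and SOCS3, its feedback inhibitor, measured 2.31, 3.13 and 3.28 CPM in DNL and 7.9, 13.2 and 10.9 CPM in OA, both lower in DNL. HAMP, the iron hormone hepcidin and the other lower member, was chosen after its values were seen and had 2 counts in DNL and 62 in OA. CP, the copper oxidase ceruloplasmin (chromosome 3, 149162410 to 149222055), measured 906, 873 and 893 CPM in DNL and 20.7, 19.8 and 18.5 CPM in OA, a 45-fold difference (log2 fold change 5.49, SE 0.0567, adjusted p = 3.98e-15). TF, transferrin, measured 6428, 6272 and 6136 CPM in DNL and 315, 272 and 250.2 CPM in OA, a 22.5-fold difference, and SERPINA1, alpha-1 antitrypsin, measured 8418, 8201 and 7798 CPM in DNL and 1683, 1738 and 1598 CPM in OA. Of 21 tested iron handling genes, which include CP and TF, 10 were higher and 8 lower in DNL (9 and 9 with library totals). Among the lower ones, SLC40A1, the iron exporter ferroportin, measured 144, 138 and 151 CPM in DNL and 246, 249 and 238 CPM in OA.

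Transcription factors of the hepatocyte had no common direction, with 12 higher and 8 lower of 29 (11 and 11 with library totals). NR1H4, the bile acid receptor FXR, measured 50.6, 39.4 and 56.3 CPM in DNL and 3.79, 4.28 and 2.73 CPM in OA, a 12.8-fold difference, and ONECUT1 (HNF6) measured 58.2, 62.6 and 48.3 CPM in DNL and 12.7, 12.8 and 10.2 CPM in OA. FOXA1, a pioneer factor, measured 104, 98.8 and 100.4 CPM in DNL and 155, 153 and 131 CPM in OA, and ESRRA, an orphan receptor of mitochondrial genes, measured 41.7, 44.4 and 46.2 CPM in DNL and 83.6, 93 and 92 CPM in OA. NR1H4 and ONECUT1 were higher and FOXA1 and ESRRA lower in DNL. Bile acid genes were higher in 14 of 21 and lower in 3. SLC51A, a basolateral bile acid transporter chain, measured 35.5, 41.6 and 39.5 CPM in DNL and 0.079, 0.0329 and 0 CPM in OA, with 2 counts in the OA group and a ratio of DNL over OA between 271 and 8105 (exact 95% interval, counting error only). ABCB4, the phospholipid pump of bile, measured 81.4, 76.8 and 75 CPM in DNL and 13.5, 15.2 and 13.2 CPM in OA. HSD3B7, a bile acid synthesis enzyme, measured 47.1, 49.4 and 49.2 CPM in DNL and 73.8, 72.4 and 68.8 CPM in OA, and BAAT, which conjugates bile acids, measured 3.82, 3.46 and 3.41 CPM in DNL and 7.11, 6.23 and 5.11 CPM in OA.

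Drug-metabolising enzymes were higher in 14 of 26 and lower in 4. UGT2B10, a glucuronosyltransferase, measured 40.8, 44.7 and 43.8 CPM in DNL and 7.98, 9.13 and 7.36 CPM in OA, and CYP4F3, a fatty acid hydroxylase, measured 49, 49.4 and 54.4 CPM in DNL and 9.79, 6.46 and 7.84 CPM in OA. CYP1A1, the classic target of the aryl hydrocarbon receptor, measured 55.7, 60.9 and 69.9 CPM in DNL and 221, 269 and 264 CPM in OA, and POR, the electron donor of cytochromes P450, measured 367, 376 and 385 CPM in DNL and 573, 549.6 and 522 CPM in OA. The first pair was higher and the second lower in DNL. Of 22 genes of the urea cycle and amino acid catabolism, 11 were higher and 5 lower. HGD of tyrosine breakdown measured 117, 121 and 125 CPM in DNL and 57.6, 49 and 54.2 CPM in OA, KYNU of tryptophan breakdown measured 36.4, 35.7 and 34.7 CPM in DNL and 164, 165 and 148 CPM in OA, and ARG2, the mitochondrial arginase, measured 21.3, 23.1 and 22.4 CPM in DNL and 93.1, 97 and 89.2 CPM in OA.

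Proliferation genes were lower in DNL. MKI67, the antigen of cycling cells, measured 105, 100.5 and 97.7 CPM in DNL and 183, 187 and 179 CPM in OA, a 1.81-fold difference with OA higher (adjusted p = 1.19e-08). CDC6, which loads the replicative helicase, measured 18, 19 and 20.2 CPM in DNL and 90.3, 92.7 and 92.2 CPM in OA, and MYBL2, a factor of late cell cycle genes, measured 26.2, 28.7 and 25.4 CPM in DNL and 77.7, 82.6 and 77.9 CPM in OA. WT stood at 68.2 ± 3.9, 25.7 ± 1.2 and 14.2 ± 0.741 CPM for these genes. Of 36 members, all tested, 29 were lower, 11 at least 2-fold, 6 were not called and 1 was higher. Histone genes were lower in 25 of 28 tested members, 19 at least 2-fold, and the other three were not called. H4C8 measured 13.6, 13.7 and 12.4 CPM in DNL and 43.2, 47.6 and 45.5 CPM in OA, H2BC17 measured 24.6, 25.5 and 24.4 CPM in DNL and 76.3, 66.8 and 65.8 CPM in OA, H3C10 measured 37.5, 43.3 and 37.8 CPM in DNL and 111, 103 and 102 CPM in OA and H2BC4 measured 90.6, 86.3 and 76.9 CPM in DNL and 166, 157 and 154 CPM in OA. These genes have near-identical copies, so their separate estimates are uncertain.

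Regulators of G1 were lower in 10 of 17 and higher in 5. MYC measured 267, 259 and 248 CPM in DNL and 452, 518 and 497 CPM in OA, and BTG1, an antiproliferative gene, measured 14.3, 17.2 and 12.8 CPM in DNL and 47.2, 56.6 and 53.9 CPM in OA. CCND1, cyclin D1, measured 819, 826 and 773 CPM in DNL and 549, 484 and 478 CPM in OA, and CCNG1, a p53-induced cyclin, measured 283, 276 and 286 CPM in DNL and 184, 171 and 173 CPM in OA. CCND1 and CCNG1 were each 1.6-fold higher in DNL. CCND2, cyclin D2, which was chosen after its values were seen, measured 167, 187 and 173 CPM in DNL and 0, 3.72 and 25.4 CPM in OA, and its OA values are uneven in the same order as the collagens above. The p53 targets had 11 higher and 10 lower of 22 (8 and 10 with library totals), with ZMAT3 at 178, 169.9 and 186 CPM in DNL and 116, 104 and 111 CPM in OA, TP53INP1 at 209.6, 200.2 and 206 CPM in DNL and 129.5, 113 and 113 CPM in OA and BBC3, a proapoptotic gene, at 8.41, 9.38 and 10.3 CPM in DNL and 41.6, 58 and 44.7 CPM in OA.

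Calls of ribosomal and nuclear respiratory genes changed with the scaling. Their median log2 fold changes were 0.32 and 0.33 with TMM and 0.08 and 0.10 with library totals. Over all genes the medians were 0.013 and -0.22. Of 38 cytosolic ribosomal protein genes, 22 were higher and 2 lower with TMM, and 15 and 11 with library totals. RPL23 measured 808, 789.6 and 720.2 CPM in DNL and 442, 498 and 471 CPM in OA, and RPL4 measured 256, 241 and 206 CPM in DNL and 288, 279.6 and 278 CPM in OA. The log2 fold change of RPL4 was -0.27, and -0.30 with OA replicate 1 as the only OA library, where it was not called. Nuclear respiratory chain genes were higher in 17 of 26 and lower in 3 with TMM, and 8 and 8 with library totals. UQCRC2, a core subunit of complex III, measured 292, 276 and 289.6 CPM in DNL and 142, 134 and 148 CPM in OA, and NDUFV1 of complex I measured 54.6, 47.8 and 49.8 CPM in DNL and 59.7, 63.1 and 62.3 CPM in OA, a call that was lost with OA replicate 1 as the only OA library (adjusted p = 0.109). Ribosome biogenesis genes were lower in 13 of 25 and higher in 3 (20 and 2 with library totals), with RRP12 at 97.1, 100.3 and 109.7 CPM in DNL and 249, 248 and 241 CPM in OA.

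Of the 13 mitochondrially encoded transcripts, 10 were higher and 1 lower under either scaling. MT-CO1 measured 34695, 32609.8 and 32429 CPM in DNL and 16173, 16053 and 15777 CPM in OA, a 2.08-fold difference. MT-ND6 measured 89.4, 92.6 and 72.2 CPM in DNL and 154, 152 and 145 CPM in OA and was the lower one. It is the only protein gene on the light strand of the mitochondrial genome, and whether the estimator was told the strand is not given in the sources used here. With OA replicate 1 as the only OA library, 4 were called higher and 1 lower, while the median log2 fold change was 1.04 against 1.10 with all libraries.

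Immediate early genes were lower in DNL in 19 of 25 tested members, 14 at least 2-fold, and higher in 3. KLF6 measured 289, 285 and 274 CPM in DNL and 776, 902 and 884 CPM in OA, and DUSP5, a phosphatase of nuclear ERK, measured 37.7, 41.8 and 38.4 CPM in DNL and 155, 198 and 179 CPM in OA. DUSP6, the cytosolic ERK phosphatase, measured 278, 276 and 273 CPM in DNL and 98.3, 97 and 101 CPM in OA, and BTG2 measured 45.4, 46.8 and 47.4 CPM in DNL and 26.1, 28.1 and 23.3 CPM in OA. DUSP5 and DUSP6 thus stood in opposite directions. ARC, an early gene best known from neurons, measured 0.462, 0.0665 and 0.125 CPM in DNL and 10.4, 14 and 14.5 CPM in OA. Its OA level was 50.2-fold that of DNL.

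Inflammatory genes had members far apart in both directions. ICAM1, an adhesion molecule, measured 481, 469 and 478 CPM in DNL and 107, 102 and 93.5 CPM in OA, and CCL20, a chemokine of lymphocytes, measured 139, 111 and 126 CPM in DNL and 12.4, 17.2 and 19 CPM in OA. IL11, a cytokine of the interleukin 6 family, measured 10.7, 11 and 12.8 CPM in DNL and 142, 199.8 and 182 CPM in OA, with OA 15.2-fold higher, and NFKB2 measured 40.2, 44.4 and 39.9 CPM in DNL and 76.6, 77.8 and 71.8 CPM in OA. Of 17 tested members, 6 were higher and 4 lower, near the background shares (5 and 6 with library totals). Interferon-stimulated genes were higher in 10 of 22 and lower in 2 (7 and 4 with library totals), beside 31.9% and 30.9% of all genes with TMM. IFI6 measured 11.5, 11.3 and 8.68 CPM in DNL and 3.16, 3.49 and 3.56 CPM in OA, PARP9 measured 20.6, 21.2 and 22.7 CPM in DNL and 9.4, 10.4 and 10.7 CPM in OA and IRF9 measured 11.5, 10.4 and 11.7 CPM in DNL and 17.8, 19 and 18.4 CPM in OA. IRF1 measured 7.54, 7.45 and 8.48 CPM in DNL and 10.8, 14.5 and 13.5 CPM in OA. IFI6 and PARP9 were higher and IRF9 and IRF1 lower, and the call of IRF1 was lost with OA replicate 1 as the only OA library (adjusted p = 0.059). In antigen presentation, CD74, the invariant chain, measured 192, 177 and 191 CPM in DNL and 75.8, 86.6 and 80.4 CPM in OA, B2M measured 296, 300.4 and 295 CPM in DNL and 172, 162 and 178 CPM in OA and TAP1 measured 15.4, 17.2 and 25.2 CPM in DNL and 39.3, 31.7 and 28.5 CPM in OA. Of 9 members tested of 20, 4 were higher and 1 lower (3 and 2 with library totals).

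Matrix genes hold several of the transcripts that differed between OA libraries. Of 32 tested members, 11 were higher and 12 lower in DNL (9 and 16 with library totals), and without the 73 genes above the 12 became 6. Members even across the OA libraries included LOXL4, a lysyl oxidase, at 139.8, 136 and 141 CPM in DNL and 31.3, 27.2 and 34.4 CPM in OA, and COL4A5, a basement membrane collagen, at 83.6, 84.2 and 89.4 CPM in DNL and 22.2, 22 and 24.5 CPM in OA, both higher in DNL. MMP14, a membrane metalloproteinase, measured 24.4, 28 and 25.4 CPM in DNL and 40, 45.8 and 75.6 CPM in OA and was lower, with OA replicate 3 above the other two. YAP and TEAD targets had 6 higher and 11 lower of 20. NT5E, an ectonucleotidase, measured 145, 154 and 155 CPM in DNL and 37.4, 38.1 and 35.5 CPM in OA, CRIM1 measured 365, 361 and 364 CPM in DNL and 262, 271 and 278 CPM in OA, the receptor kinase AXL measured 31.3, 27.6 and 30.3 CPM in DNL and 67.9, 75.2 and 70.2 CPM in OA and PTPN14 measured 75.7, 71.1 and 71.9 CPM in DNL and 122, 134 and 143 CPM in OA.

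In the activin axis, 9 of 20 members were higher and 8 lower (7 and 9 with library totals). INHBC, a hepatic activin chain, measured 16.8, 14.8 and 16.1 CPM in DNL and 2.21, 2.34 and 1.9 CPM in OA, and TGFBR2 measured 871, 849.7 and 921 CPM in DNL and 562, 521 and 544 CPM in OA. The activin antagonists FST, at 51.7, 50.6 and 52.3 CPM in DNL and 224, 203 and 209.8 CPM in OA, and FSTL3, at 23.2, 25.4 and 26.7 CPM in DNL and 67.9, 78.4 and 77.1 CPM in OA, were lower in DNL. Wnt feedback targets were higher in 12 of 16 and lower in 2 (8 and 3 with library totals). TNFRSF19 measured 229.7, 218 and 245 CPM in DNL and 56.1, 48.1 and 43.1 CPM in OA, LGR5 measured 191, 192 and 205 CPM in DNL and 104, 97.5 and 99.99 CPM in OA, AXIN2 measured 134, 138 and 129 CPM in DNL and 197, 183 and 178 CPM in OA and DKK1, a secreted Wnt antagonist, measured 31.3, 30.9 and 32.8 CPM in DNL and 76, 71.5 and 74.9 CPM in OA. LGR5 and TNFRSF19 were higher and AXIN2 and DKK1 lower in DNL.

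Keratins and biliary genes were split, with 6 higher and 8 lower of 14. SOX9 measured 689.8, 662 and 633 CPM in DNL and 271, 247 and 244 CPM in OA, and ANXA4 measured 86, 87.8 and 81.3 CPM in DNL and 32.5, 34.8 and 33.8 CPM in OA. KRT19, the keratin of bile ducts, measured 169.7, 153 and 128 CPM in DNL and 613, 547 and 493 CPM in OA, CLDN4 of tight junctions measured 45.2, 52.1 and 55.7 CPM in DNL and 231, 255 and 233 CPM in OA, and SOX4 measured 88.3, 92.9 and 85.6 CPM in DNL and 292, 321 and 309 CPM in OA. The first pair was higher and the other three lower in DNL. EPCAM, an epithelial adhesion molecule, measured 94.9, 80.4 and 83 CPM in DNL and 69.4, 56.8 and 56.4 CPM in OA, and its call as higher was lost with OA replicate 1 as the only OA library (adjusted p = 0.0769). Of 6 cholangiocyte markers, 5 were tested, 3 higher and 2 lower, with summed levels of 851 to 964 CPM in DNL, 805 to 961 CPM in OA and 463 to 479 CPM in WT. The 10 macrophage and leukocyte markers summed to 1812 to 1892 CPM in DNL and 1135 to 1182 CPM in OA, of which LYZ, lysozyme, made 1579, 1670.1 and 1662 CPM in DNL and 1017, 1039 and 1029 CPM in OA. The 7 endothelial markers summed to at most 7.32 CPM in a DNL library and 2.38 CPM in an OA library. The 6 adipocyte markers summed to 38.8 to 44.2 CPM and 40.02 to 44.9 CPM. The part of these markers in other results was not tested.

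The largest rises and falls include genes outside these lists. PPT2, a lysosomal thioesterase, measured 7.24, 21.2 and 8.64 CPM in DNL and 0, 0 and 0 CPM in OA, and PNCK, a calmodulin-dependent kinase, measured 4.47, 7.65 and 8.19 CPM in DNL and 0, 0 and 0 CPM in OA. Neither had a count in OA, so they were at least 182-fold and 109-fold higher in DNL, as bounds for counting error against 3 counts over the OA group. PPT2 overlaps a read-through gene, and its share of reads is uncertain. DYSF, a membrane repair protein, measured 12.9, 9.45 and 11.7 CPM in DNL and 0.079, 0.0329 and 0 CPM in OA, with 2 counts in OA. TUBB1, a tubulin of platelets, measured 38, 35.1 and 33.3 CPM in DNL and 0.237, 0.362 and 0.594 CPM in OA, TFF1, a secreted trefoil peptide, measured 16.2, 17.6 and 13.7 CPM in DNL and 0.237, 0.132 and 0.356 CPM in OA, and SSTR3, a somatostatin receptor, measured 5.45, 6.39 and 5.44 CPM in DNL and 0, 0.132 and 0 CPM in OA. LCN15, a lipocalin, measured 8.16, 5.26 and 5.24 CPM in DNL and 0.237, 0 and 0 CPM in OA, with 3 counts in OA.

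Among the falls, AQP3, a channel for water and glycerol (chromosome 9, 33441154 to 33447633), measured 1.35, 0.399 and 0.665 CPM in DNL and 427, 493 and 453 CPM in OA, a 498-fold difference (log2 fold change -8.96, SE 0.165, adjusted p = 2.52e-11). WT cells held 222 ± 8.09 CPM, between the 2 groups. ANKRD13D had no count in DNL and measured 4.5, 3.0 and 8.43 CPM in OA replicates 1, 2 and 3, so that it was at least 102-fold lower in DNL, a bound against 3 counts over the DNL group. ZNF165, a zinc finger gene, measured 5.08, 4.46 and 6.11 CPM in DNL and 108, 128 and 124 CPM in OA, and MYOF, a ferlin, measured 4.25, 3.66 and 2.83 CPM in DNL and 65.9, 81.8 and 90.4 CPM in OA. CSDC2 measured 0.216, 0.2 and 0.332 CPM in DNL and 13.3, 13.8 and 13.8 CPM in OA, RND1, a small GTPase, measured 0.739, 0 and 0.291 CPM in DNL and 8.77, 10.9 and 9.74 CPM in OA, and CYP1B1, a target of the aryl hydrocarbon receptor, measured 0.0924, 0.2 and 0.0831 CPM in DNL and 3.95, 4.12 and 7.36 CPM in OA. ALOXE3, an epidermal lipoxygenase, measured 0.185, 0.266 and 0 CPM in DNL and 4.74, 8.6 and 7.24 CPM in OA. CRYAB, a small heat shock protein, measured 0.246, 0.399 and 0.0416 CPM in DNL and 3.24, 3.79 and 12.4 CPM in OA, and COL6A2, a collagen VI chain, measured 0.246, 0.133 and 0.249 CPM in DNL and 3.0, 3.1 and 10.1 CPM in OA, and in both OA replicate 3 stood at about 3 times the others.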

How the data were processed

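Total RNA was sequenced as stranded libraries after removal of ribosomal RNA. Reads were checked with FastQC 0.11.9 and quantified with kallisto 0.48.0 on GRCh38, per the submitters' processing notes. Neither the strand setting nor the annotation release is given in the sources used here. The deposited values are estimated counts per gene, and how transcripts were combined into genes is not stated there. They were rounded to whole numbers, filtered with filterByExpr and scaled by TMM, leaving 13636 of 19317 genes. Gene positions are from GENCODE v29. One edgeR 4.0.16 quasi-likelihood fit (R 4.3.3) held all 9 libraries, with the contrast DNL minus OA and Benjamini-Hochberg adjustment. The procedure was first run on simulated counts in which few genes changed. That run does not test the scaling where most genes differ, as they did here. DESeq2 1.42.0 and limma 3.58.1 served as alternatives. Levels of single genes carry no interval. Bounds and ratios at low counts cover counting error only.

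Genes are named where they had the 12 highest or the 12 lowest fitted fold changes among calls whose DNL and OA values did not overlap, whose higher group averaged 5 CPM or more, and whose values there spanned at most 5-fold. To these were added 24 set genes and up to 4 called members of each list, ranked by adjusted p. Where a list had calls both ways, up to 2 came from its higher calls and up to 2 from its lower calls. The named members therefore do not show how the calls of a list were divided, which its counts give. The comparison, lists and rules were chosen with earlier results of these data known. Some genes that met these rules are not reported here.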

Additional observations from a re-analysis of the deposited data

How the results depend on the processing

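With TMM, 4349 genes were higher and 4208 lower in DNL. Leaving out 1 library at a time gave 4058 to 4327 higher and 3896 to 4208 lower genes. Of the genes named by rule and given in the text, KRT7 without OA replicate 2 was the exception that changed its call, and genes chosen after their values were seen were not followed. Counts thinned to the shallowest library gave 3912 and 3837. DESeq2 gave 4272 and 4253, and limma-voom 4365 and 4240, where COL1A1 and COL3A1 were not called (adjusted p = 0.131 and 0.0566). A fit with a replicate block gave 4303 higher and 4169 lower genes and changed the call of no gene named by rule. The deviations of same-numbered DNL and OA libraries correlated at 0.0402, -0.018 and 0.027, so the numbers were not taken as a pairing. Scaling by library totals kept 7166 of 8557 calls in their direction, reversed 28 and gave 2958 higher and 5773 lower. Of 65 list counts of at least 5, this scaling moved 2 by over 1.5 times.

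With OA replicate 1 as the only OA library, an alternative chosen after seeing the data that assumes it to vary like the other groups, 6835 calls kept their direction and 0 reversed, and 7 list counts moved by over 1.5 times. Higher members went from 16 to 10 in triacylglycerol synthesis, from 11 to 7 among oncofetal genes, from 6 to 3 among keratins and from 5 to 3 among droplet proteins. Lower members went from 10 to 6 among p53 targets and from 5 to 3 in the urea cycle. The median log2 fold change went from 0.47 to 0.48 in triacylglycerol synthesis, from 0.95 to 0.69 among oncofetal genes, from -0.52 to -0.53 among keratins, from -0.15 to -0.10 among droplet proteins, from 0.20 to 0.07 among p53 targets and from 0.49 to 0.62 in the urea cycle. The cause was not tested. Depth limits genes of a few counts in OA replicate 3, which held 7836520 counts.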

Other observations

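Members of the circadian clock differed in both directions. HLF, a clock-controlled factor of the PAR bZIP family, measured 752, 776 and 760.2 CPM in DNL and 210.3, 175 and 164 CPM in OA, and BHLHE40, a repressor that is also induced by hypoxia, measured 466, 429.9 and 389 CPM in DNL and 135, 159 and 149.7 CPM in OA. The repressors CRY1 and PER1 measured 24.9, 25.4 and 25.9 CPM in DNL and 69, 74.4 and 66.9 CPM in OA, and 16.5, 14.3 and 15.3 CPM in DNL and 30.8, 38.7 and 32.8 CPM in OA. HLF and BHLHE40 were higher and CRY1 and PER1 lower in DNL. Of 18 tested clock genes, 8 were higher and 6 lower in DNL (7 and 9 with library totals), and the hour of collection is not given in the sources used here.

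Of 11 genes of IGF and its binding proteins, 5 were higher and 4 lower in DNL, and of 16 tested oncofetal genes 11 were higher and 5 lower. IGF2, the fetal growth factor, measured 9742, 8898 and 8238 CPM in DNL and 1003, 1149.7 and 1029.9 CPM in OA, an 8.44-fold difference, and IGF2R, its clearing receptor, measured 1169, 1119.6 and 1068 CPM in DNL and 592, 569.6 and 548 CPM in OA. IGFBP6 measured 1.97, 1.6 and 1.37 CPM in DNL and 6.87, 6.59 and 4.75 CPM in OA. The paternally expressed genes PEG3 and DLK1 measured 1219.6, 1199.6 and 1179.7 CPM in DNL and 361, 343 and 329.5 CPM in OA and 777, 780.1 and 763 CPM in DNL and 202, 179 and 178 CPM in OA, and were higher in DNL, whereas PEG10 measured 1648, 1579 and 1579 CPM in DNL and 2483, 2408 and 2418 CPM in OA and was lower. IGF2BP1, an oncofetal RNA-binding protein, measured 606, 634 and 618 CPM in DNL and 745, 731 and 736 CPM in OA.

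Metallothionein and zinc transport genes had 7 higher and 5 lower of 14 tested, and aquaporin and glycerol genes 3 higher and 3 lower of 8, with no common direction in either list. SLC30A10, an exporter of manganese, measured 39.9, 43 and 48.7 CPM in DNL and 7.66, 5.47 and 4.87 CPM in OA, and SLC30A1, the zinc exporter of the plasma membrane, measured 286, 289 and 286 CPM in DNL and 129, 131 and 132 CPM in OA. The importers SLC39A14 and SLC39A1 measured 569, 572 and 616 CPM in DNL and 1014, 1036 and 990.3 CPM in OA and 65.8, 69 and 75.6 CPM in DNL and 117, 123 and 118 CPM in OA. These 2 exporters were higher and these 2 importers lower in DNL. Besides AQP3, the glycerol channel AQP7 measured 0.924, 0.333 and 0.457 CPM in DNL and 5.21, 4.22 and 5.34 CPM in OA and was lower in DNL, while GK, glycerol kinase, measured 194, 208 and 219 CPM in DNL and 114, 116 and 103 CPM in OA and AQP11 measured 16.5, 16.8 and 19.7 CPM in DNL and 10.3, 10.8 and 9.38 CPM in OA, both higher.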
